A study of Homo sapiens with 2 samples.

Results

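The HOX clusters hold the homeodomain transcription factor genes HOXA, HOXB, HOXC and HOXD together with antisense and intergenic RNA genes. Members were taken by name from a table of 36814 gene windows. A window counted if its gene name was HOX with a cluster letter and a number, an antisense name such as HOXB-AS1, or HOTAIR, HOTTIP or HOTAIRM1. This gave 55 windows, of which 39 belong to coding genes and 16 to noncoding RNA genes. The HOXA cluster on chromosome 7 has 17 of them, the HOXB cluster on chromosome 17 has 14, the HOXC cluster on chromosome 12 has 14 and the HOXD cluster on chromosome 2 has 10.

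Nascent RNA was measured by PRO-seq, precision run-on sequencing, in K562, an established human line of chronic myelogenous leukaemia. One library came from K562 cells kept in 0.1% DMSO, a drug solvent, for 1 h (4154920 reads), and the other from untreated K562 cells (2136291 reads). Each treatment had 1 library, so no value below has a replicate check and no p-value is given. A value compares these libraries rather than the conditions, and in bulk samples fewer transcribing cells and less RNA per cell cannot be told apart.

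HOX genes set positional identity along the body axis. Within a cluster they lie in an order that matches where they are used, with low paralog numbers acting towards the head and high numbers towards the tail and in the limbs. In blood, HOX genes of the A and B clusters are active in stem and progenitor cells and are shut down as cells mature, and several are known from leukaemia. Polycomb complexes keep silent clusters closed, and MLL and Trithorax complexes keep active ones open. HOX proteins bind DNA with TALE partners of the PBX and MEIS families, and many clusters carry antisense RNAs and microRNAs between the coding genes.

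Each window spans 6000 bases, 3000 to either side of a gene's annotated start on hg38. Bases covered by several windows contributed no reads: all 1154 windows without a base of their own held 0 reads. The HOX clusters are dense in genes, so much of their sequence was not counted. The unshared bases of the members came to 34156 for HOXA, 46561 for HOXB, 30359 for HOXC and 37385 for HOXD. As a share of the distance from the first to the last window these were 30.9%, 22.8%, 30.4% and 36.7% for A to D. Of the 55 windows, 23 had under 1 kb of unshared bases and 6 had none. Levels are therefore given as CPM, counts scaled to an equal library total, per kb of unshared bases. Whether reads were counted by strand is not given in the sources used here, so a HOX gene and the antisense RNA in the same bases cannot be told apart. In 43 windows a RefSeq start of the named gene lies inside the window, and in 12 it does not, so the label of those 12 refers to another annotated transcript.

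CPM do not compare the libraries with each other, because ribosomal RNA windows took 42.2% of the DMSO reads and 71.5% of the untreated reads. DMSO over untreated ratios were instead put on the TMM scale of edgeR, which trims extreme windows before it sets the library sizes. They are given relative to the median of the 6591 windows past a floor of 5 CPM on average and 100 reads in all. That median window had 4.72 DMSO reads per untreated read. Intervals are exact at 95%, Poisson for densities and Clopper-Pearson for shares and ratios, and they cover counting error only. Of all windows of the table, 34.7% were at 1 CPM or more with and without DMSO. Erythroid markers, which K562 is known to express, were at this level in 12 of 14 windows. Granulocytic and monocytic, lymphoid and neural markers reached it in 2 of 10 windows each. By summed reads the DMSO library did not show the same order, with 4077 neural and 3446 erythroid reads. Of these neural reads, 2985 fell in the window of CDR1 alone, so that order rests on 1 window. Untreated cells had 15 neural and 1200 erythroid reads.

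In all, 7 microRNA genes lie in member windows, 5 of them in counted bases. The mature RNAs of the miR-10, miR-196 and miR-615 families are shown because their genes lie inside HOX windows of the 4 clusters. Sequences are from RefSeq on GRCh38.p14, with the seed, bases 2 to 8, in capitals.
hsa-miR-10a-5p: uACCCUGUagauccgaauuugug
hsa-miR-10b-3p: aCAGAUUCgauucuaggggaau
hsa-miR-196a-5p: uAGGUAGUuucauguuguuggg
hsa-miR-196b-5p: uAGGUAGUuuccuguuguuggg
hsa-miR-615-3p: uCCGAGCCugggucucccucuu
The miR-196 RNAs share the seed AGGUAGU and differ by A12C, counted from 1 at the 5′ end, with miR-196a first. MIR196A1 lies in the HOXB7 window with 105 DMSO reads and 35 untreated reads. MIR196A2 lies in the HOXC6 window with 7 DMSO reads and 1 untreated read, and MIR196B in the HOXA10-AS window with 11 DMSO reads and 0 untreated reads. The same seed was thus encoded in windows at very unequal levels, highest in the HOXB cluster in both libraries. MIR615 lies in the HOXC5 window with 41 DMSO and 10 untreated reads. MIR10A lies in bases that the HOXB4 window shares with another window, so it was not counted, and MIR10B lies in the counted bases of HOXD4 with 1 DMSO and 0 untreated reads.

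Start regions of 4 members follow, each 300 bases from 250 before to 50 after the RefSeq start on GRCh38.p14 and each wholly in counted bases. HOXB-AS2 and HOXB-AS3 stand for windows with many reads, HOXB1 and HOXD4 for fully unshared windows with few. Capitals mark TAAT, the core of most homeodomain sites, and TGATNNAT, the joint HOX and PBX site, each searched on both strands with overlapping matches allowed, so TAAT on the other strand appears as ATTA.
HOXB-AS2: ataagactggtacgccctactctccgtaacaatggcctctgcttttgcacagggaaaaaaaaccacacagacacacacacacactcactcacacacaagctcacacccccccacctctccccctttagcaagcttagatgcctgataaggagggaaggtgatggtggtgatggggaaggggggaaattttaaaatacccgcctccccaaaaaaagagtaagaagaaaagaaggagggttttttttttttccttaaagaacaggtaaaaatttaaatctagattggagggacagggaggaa
HOXB-AS3: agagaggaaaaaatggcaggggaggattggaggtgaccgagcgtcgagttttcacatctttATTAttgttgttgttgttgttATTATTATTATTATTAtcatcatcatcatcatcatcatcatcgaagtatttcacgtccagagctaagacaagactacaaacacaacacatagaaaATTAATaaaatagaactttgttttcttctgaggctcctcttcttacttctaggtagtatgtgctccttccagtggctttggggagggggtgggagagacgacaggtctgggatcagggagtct
HOXB1: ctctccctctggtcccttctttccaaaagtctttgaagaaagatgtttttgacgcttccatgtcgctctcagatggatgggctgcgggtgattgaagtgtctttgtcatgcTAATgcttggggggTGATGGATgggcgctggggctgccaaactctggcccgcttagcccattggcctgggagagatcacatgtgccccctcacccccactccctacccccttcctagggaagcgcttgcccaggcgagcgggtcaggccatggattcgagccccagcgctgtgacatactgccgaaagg
HOXD4: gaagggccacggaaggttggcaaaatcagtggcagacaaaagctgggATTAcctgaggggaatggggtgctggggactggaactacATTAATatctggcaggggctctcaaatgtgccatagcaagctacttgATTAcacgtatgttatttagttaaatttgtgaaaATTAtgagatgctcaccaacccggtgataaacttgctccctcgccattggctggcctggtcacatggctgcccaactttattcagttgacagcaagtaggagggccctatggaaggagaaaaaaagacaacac
The HOXB-AS2 sequence is chr17:48555907-48556206 on the plus strand, in its own window with 169 DMSO and 49 untreated reads. The HOXB-AS3 sequence is chr17:48595708-48596007 on the plus strand, and it lies in the HOXB5 window with 107 DMSO and 28 untreated reads. HOXB1 is chr17:48530962-48531261 on the minus strand (4 DMSO reads, 0 untreated) and HOXD4 chr2:176151300-176151599 on the plus strand (1 DMSO read, 0 untreated). TAAT occurred 0 times at HOXB-AS2, 8 times at HOXB-AS3, once at HOXB1 and 5 times at HOXD4, and TGATNNAT once at HOXB1. The HOXB-AS3 matches lie mostly in a run of ATT repeats, and 1.63% of all 35116 RefSeq start regions of this length held as many. At least 1 TAAT occurred in 50.2% of them and TGATNNAT in 7.40%. The 4 start regions held 3, 6, 11 and 4 CG pairs in the order printed, all under the median of 14 over all start regions. Other start regions in counted bases of windows with few reads lay above it, with 24 CG pairs at HOXD13 and 34 at HOXD8, so the few CG pairs of the 4 printed do not stand for all members. These letters are a description, not a site.

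HOXB, HOXC and the pair of HOXA and HOXD differed beyond counting error, and HOXB held most of the HOX reads in both libraries. HOXB had 1968 of 2267 HOX reads with DMSO, 86.8% (85.3 to 88.2%), and 518 of 568 in untreated cells, 91.2% (88.6 to 93.4%). HOXC had 213 reads with DMSO, 9.40% (8.23 to 10.7%), and 45 in untreated cells, 7.92% (5.84 to 10.5%). HOXA had 48 reads with DMSO, 2.12% (1.57 to 2.80%), and 0 in untreated cells, which allows a share of up to 0.647% by the exact interval. HOXD had 38 reads with DMSO, 1.68% (1.19 to 2.29%), and 5 in untreated cells, 0.880% (0.286 to 2.04%). HOX windows together took 0.0546% of all DMSO reads and 0.0266% of all untreated reads.

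The order held per length. HOXB reached 10.2 CPM per unshared kb with DMSO (9.73 to 10.6) and 5.21 in untreated cells (4.77 to 5.68). HOXC reached 1.69 with DMSO (1.47 to 1.93) and 0.694 in untreated cells (0.506 to 0.928). HOXA was at 0.338 with DMSO (0.249 to 0.448), and its 0 reads in untreated cells lie below the 0.0411 CPM per unshared kb that 3 reads would give. HOXD was at 0.245 with DMSO (0.173 to 0.336) and 0.0626 in untreated cells (0.0203 to 0.146). For scale, the median over all 28075 windows with at least 1 kb of unshared bases was 0.361 CPM per unshared kb with DMSO and 0.0780 in untreated cells. Over the members of that kind the median was 6.78 with DMSO and 3.82 in untreated cells for HOXB, and 0.602 and 0.234 for HOXC. For HOXA it was 0.199 and 0, and for HOXD 0.201 and 0. The typical HOXB and HOXC windows thus lay above the typical window of the table, and those of HOXA and HOXD below it. The density of HOXB was 6.02 times that of HOXC with DMSO (5.23 to 6.97) and 7.51 times in untreated cells (5.53 to 10.4). HOXB was 30.1 times HOXA (22.6 to 40.9) and 41.6 times HOXD (30.2 to 58.9) with DMSO. HOXD over HOXA was 0.723 with DMSO, an interval of 0.460 to 1.13 that includes 1, so these neighbours in the order were not told apart. In untreated cells HOXB was 83.2 times HOXD (35.4 to 257) and, with 3 reads in place of the 0, at least 127 times HOXA.

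**Figure D1:**
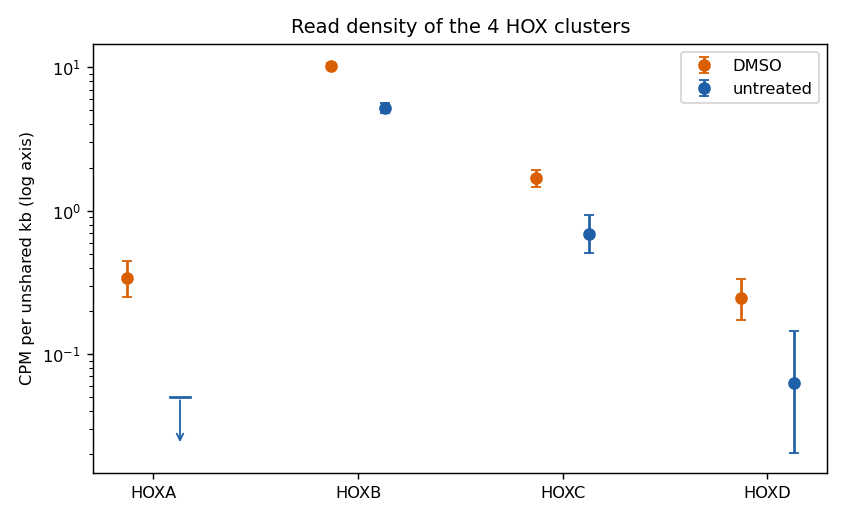
Read density of the 4 HOX clusters in CPM per unshared kb on a log axis, DMSO (orange, left) and untreated (blue, right), with exact 95% Poisson intervals as bars. The arrow marks the upper limit for HOXA in untreated cells, where 0 reads were counted. HOXB stands highest in both libraries at 10.2 and 5.21, and HOXA and HOXD lie close together with DMSO at 0.338 and 0.245.

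Of the 55 windows, 13 (23.6%) reached 1 CPM in both libraries, 9 of them in HOXB and 4 in HOXC, none in HOXA or HOXD. Over all windows of the table the share was 34.7%. All 13 were among the 32 members with at least 1 kb of unshared bases, and 42.7% of all windows with that many unshared bases reached this level. As a set the HOX windows were therefore no more often at this level than windows in general, while HOXB accounted for 9 of the 13. At least 1 read fell in 32 member windows with DMSO and in 19 in untreated cells. Both libraries had 0 reads in 22 windows, and 18 of these had under 1 kb of unshared bases, where few reads could be counted. Of all 36814 windows of the table, 28585 held a DMSO read and 18424 an untreated read. Both libraries had 0 reads in 7529 of them, of which 4691 had under 1 kb of unshared bases.

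In HOXB the reads ran from HOXB-AS1 to HOXB7 and were nearly absent at both ends of the cluster. The 12 windows between HOXB1 and HOXB13 held 1963 DMSO and 514 untreated reads, 12.9 CPM per unshared kb with DMSO and 6.56 in untreated cells. The end genes HOXB1, which patterns the hindbrain, and HOXB13, known from the prostate and the tail end of the spine, together had 5 DMSO and 4 untreated reads, 0.121 and 0.189 CPM per unshared kb. HOXB1 had 4 DMSO reads and 0 untreated reads over 6000 unshared bases. HOXB13 had 1 DMSO read and 4 untreated reads over 3906 unshared bases. Outside HOXB, the HOXC4 window with 0 DMSO and 2 untreated reads in 179 bases was the 1 other member with more untreated reads.

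**Figure D2:**
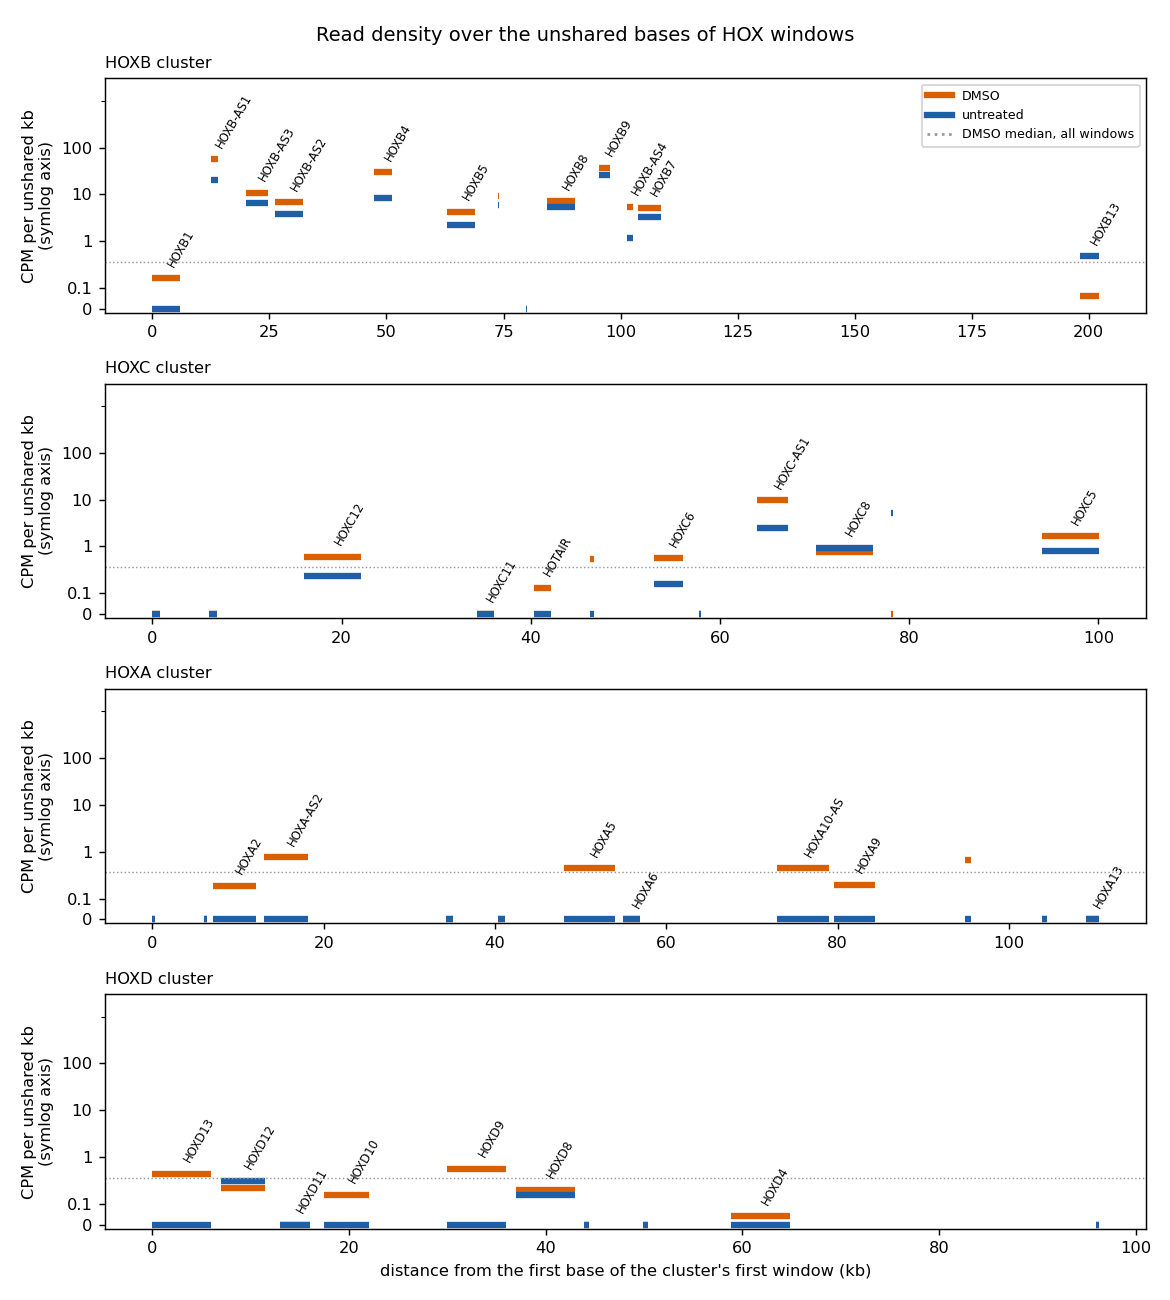
Read density along the 4 clusters in CPM per unshared kb on a symlog axis, against the distance in kb from the first base of the cluster's first window. Each bar spans the unshared bases of 1 window, orange for DMSO and blue for untreated, blue drawn over orange where both are equal. Names are given for windows with at least 1 kb of unshared bases, and the dotted line is the DMSO median over all windows, 0.361. In HOXB the named bars from HOXB-AS1 to HOXB7 lie above that line, and HOXB1 lies below it in both libraries.

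Among HOXB coding genes, HOXB4 had the most DMSO reads. HOXB4, known for expanding blood stem cells when overexpressed, had 479 DMSO and 70 untreated reads in its window at chromosome 17, 48575351 to 48581350. That is 29.5 CPM per unshared kb with DMSO and 8.38 in untreated cells, over 3909 unshared bases that RefSeq annotates to HOXB4 and HOXB3. HOXB9, a posterior gene of the trunk, had 352 DMSO and 131 untreated reads (chromosome 17, 48623359 to 48629358), 36.6 and 26.5 CPM per unshared kb over 2316 bases. HOXB9 was the coding member of highest density in both libraries, at percentile 98.9 with DMSO and 99.6 in untreated cells among windows with at least 1 kb of unshared bases. Its own start lies in bases shared with HOXB-AS4, so these reads came from elsewhere in its window.

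The other HOXB coding windows were lower and close to each other. HOXB8, which blocks myeloid maturation when overexpressed, had 179 DMSO and 70 untreated reads, 7.18 and 5.46 CPM per unshared kb. HOXB7 had 105 DMSO and 35 untreated reads, 5.16 and 3.34 CPM per unshared kb, in a window whose centre lies 22.6 kb from the nearest RefSeq start of HOXB7 and whose counted bases hold MIR196A1 and HOXB-AS4. HOXB5, a gene of the central group, had 107 DMSO and 28 untreated reads, 4.29 and 2.18 CPM per unshared kb, in bases that RefSeq also gives to HOXB-AS3 and HOXB6. These 3 windows lay between percentiles 78.5 and 85.2 with DMSO. HOXB2, HOXB3 and HOXB6 had 79, 80 and 80 unshared bases and held 1, 3 and 0 DMSO reads, against 0, 1 and 0 untreated reads, so their own levels could not be read.

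The 4 noncoding HOXB windows took 37.4% of the HOXB reads with DMSO (35.3 to 39.6%) and 34.6% in untreated cells (30.5 to 38.8%). HOXB-AS1 had 335 DMSO and 63 untreated reads in 1439 unshared bases, 56.0 CPM per unshared kb with DMSO and 20.5 in untreated cells. This was the highest density of any member with DMSO, at percentile 99.6. RefSeq places no gene in these bases, which lie at the outer edge of the window. HOXB-AS3 had 206 DMSO and 64 untreated reads, 10.7 and 6.46 CPM per unshared kb, but its window lies 40.8 kb from the nearest RefSeq start of HOXB-AS3 and its counted bases belong to HOXB-AS1 and HOXB3. HOXB-AS2 had 169 DMSO and 49 untreated reads, 6.78 and 3.82 CPM per unshared kb, in bases that also hold part of HOXB3. HOXB-AS4 had 27 DMSO and 3 untreated reads, 5.35 and 1.16 CPM per unshared kb. Each of the 4 thus held reads in both libraries, and each lies over or beside HOXB2, HOXB3 or HOXB9.

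HOXC reads lay mostly in the stretch from HOXC-AS1 to HOXC5. These 4 neighbouring windows held 189 DMSO and 41 untreated reads, and the other 10 held 24 and 4. HOXC-AS1, with its window at chromosome 12, 53997011 to 54003010, had 129 DMSO and 17 untreated reads, 9.63 and 2.47 CPM per unshared kb. It made up 60.6% of the HOXC reads with DMSO (53.7 to 67.2%) and 37.8% in untreated cells (23.8 to 53.5%). The RefSeq start of HOXC9 also lies in the counted bases of HOXC-AS1, whereas the window labelled HOXC9 had 162 unshared bases and 0 reads in both libraries. Which of the pair the reads belong to cannot be told from these counts.

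HOXC5 had 41 DMSO and 10 untreated reads, 1.64 and 0.780 CPM per unshared kb, in bases that RefSeq gives to HOXC4, HOXC5, HOXC6 and MIR615. HOXC8, a gene of the lower trunk, had 19 DMSO and 12 untreated reads, 0.762 and 0.936 CPM per unshared kb. HOXC12, a posterior gene, had 15 DMSO and 3 untreated reads, 0.602 and 0.234 CPM per unshared kb. HOXC6 had 7 DMSO reads and 1 untreated read, 0.552 and 0.153 CPM per unshared kb, in a window 26.3 kb from the nearest RefSeq start of HOXC6 whose counted bases belong to HOXC10 and MIR196A2. These 4 windows lay above the median of all windows and below HOXC-AS1. HOXC10 had 1 DMSO and 0 untreated reads in 455 bases. HOTAIR, the intergenic RNA known from work on the HOXD cluster, had 1 DMSO and 0 untreated reads in 1831 unshared bases.

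HOXA reads were found in the DMSO library and in no window of the untreated library. HOXA-AS2 had 16 DMSO reads, 0.757 CPM per unshared kb, in a window that does not hold its RefSeq start and whose counted bases belong to HOXA3. HOXA5, known from the lung and the neck, and HOXA10-AS had 11 DMSO reads each over 6000 bases, 0.441 CPM per unshared kb. HOXA2, which patterns the face and hindbrain, and HOXA9, a gene of blood progenitors and leukaemia, had 4 DMSO reads each, 0.189 and 0.199 CPM per unshared kb, and HOXA11 had 2 in 717 bases. The HOXA9 window does not hold a RefSeq start of HOXA9, and its counted bases belong to HOXA10 and the HOXA10-HOXA9 readthrough. These DMSO levels lay between percentiles 39.2 and 58.7 for the 5 of these windows with at least 1 kb of unshared bases, near the middle of the table.

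The remaining 11 HOXA windows were at 0 in both libraries. HOXA6 (1958 unshared bases) and HOXA13 (1517) had over 1 kb in which reads could be counted. HOXA4 and HOXA-AS3 had 804 each, HOTTIP, an RNA from the posterior end of the cluster, 643, and HOTAIRM1, an RNA of the anterior end known from myeloid cells, 350. HOXA3, HOXA7, HOXA10 and HOXA11-AS had none, so the windows with these names could hold no reads, although bases of HOXA3, HOXA10 and HOXA11-AS were counted under other names. In HOXC the 0 windows were HOXC11 (1831 bases), HOXC13 and HOXC13-AS (813 each), HOXC9, and HOXC-AS3 and HOXC-AS2 with none. In HOXB the window at 0 was HOXB6.

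HOXD was low throughout. HOXD9 had 14 DMSO reads and 0 untreated reads over 6000 bases, 0.562 CPM per unshared kb with DMSO. HOXD13, the gene of the digits, had 11 and 0 over 6000 bases, 0.441 CPM per unshared kb with DMSO. HOXD8 had 5 DMSO and 2 untreated reads, HOXD12 had 4 and 3, HOXD10 had 3 and 0, and HOXD4 had 1 and 0. The HOXD10 window does not hold a RefSeq start of HOXD10, and its counted bases belong to HOXD11 and hold the HOXD11 start. The counted bases of HOXD4 also hold the HOXD3 start. The posterior members HOXD9 and HOXD13 thus held most of the 38 DMSO reads. Windows at 0 in both libraries were HOXD11 (3060 unshared bases), HOXD3 and HOXD-AS2 (487 each) and HOXD1 (291). For HOXD11 and HOXD3 this describes the windows with these names, since their starts were counted under other names.

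**Figure D3:**
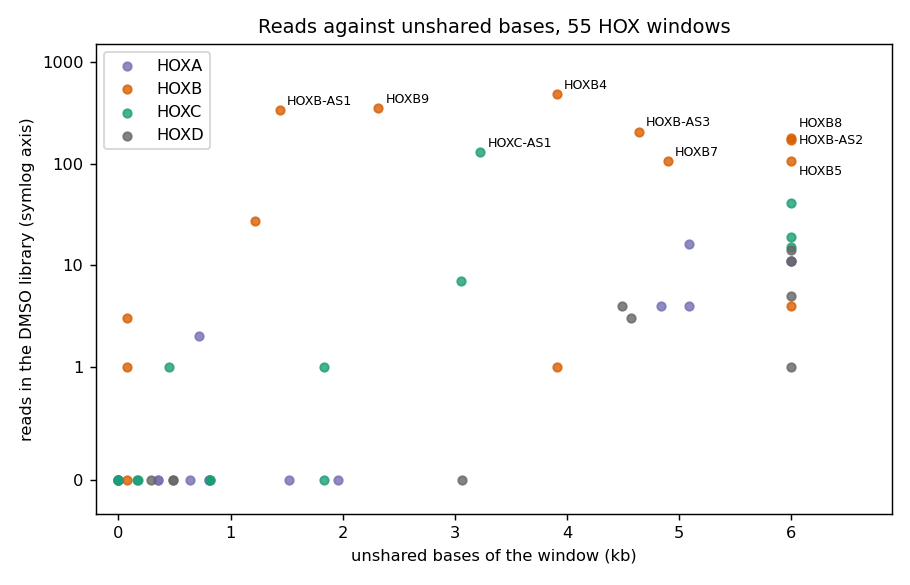
Reads in the DMSO library (symlog axis) against unshared bases in kb for the 55 HOX windows, coloured by cluster. Windows with at least 100 DMSO reads are named. The named windows are 8 of HOXB and HOXC-AS1, from 1439 unshared bases upwards, and 18 of the 22 windows at 0 in both libraries lie under 1 kb.

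Read by paralog group over all clusters, the coding windows named for groups 1 to 3 had the lowest density. Of these 8 windows, 6 had under 1 kb of unshared bases, and most of the bases were those of HOXA2 and HOXB1. Groups follow window names, so they miss group 3 bases counted under other names. HOXB3 bases lie in the counted bases of the HOXB4 window, with 479 DMSO reads, and of the HOXB-AS3 and HOXB-AS2 windows. HOXA3 bases lie in those of HOXA5 and HOXA-AS2. The level of the group 1 to 3 genes themselves could therefore not be read. The 8 anterior windows had 12 DMSO reads and 1 untreated read, 0.233 CPM per unshared kb with DMSO (0.121 to 0.408). The 15 windows of the central groups 4 to 8 had 954 DMSO and 230 untreated reads, 4.04 and 1.89 CPM per unshared kb. HOXB gave 870 of these DMSO reads and 203 of the untreated ones. The 16 windows of the posterior groups 9 to 13 had 407 DMSO and 141 untreated reads, 2.10 and 1.41 CPM per unshared kb. HOXB9 and HOXB13 gave 353 of the posterior DMSO reads and 135 of the untreated ones, so the posterior level was set by HOXB9. Outside HOXB the windows with posterior names were low, with 16 DMSO and 3 untreated reads in HOXC and 32 and 3 in HOXD. The order of central above posterior did not hold within each cluster. In HOXB the posterior windows were at 13.7 CPM per unshared kb with DMSO and the central ones at 10.0, and at 10.2 and 4.55 in untreated cells. With DMSO, posterior also lay above central in HOXD (0.319 and 0.120), but below it in HOXA (0.204 and 0.302) and HOXC (0.416 and 1.06). The HOXC order too follows window names. The HOXC9 start was counted in the HOXC-AS1 window, with 129 DMSO and 17 untreated reads, which is in no paralog group. The counted bases of the HOXC6 window, placed in the central group, belong to HOXC10 and MIR196A2. Noncoding windows of all clusters reached 6.61 CPM per unshared kb with DMSO (6.19 to 7.06) and 2.82 in untreated cells (2.44 to 3.24). Coding windows were at 2.85 with DMSO (2.70 to 3.01), with an untreated interval of 1.35 to 1.66. This compares window labels, not RNA types. HOXB gave 737 of the 894 noncoding DMSO reads, and 335 of these fell in HOXB-AS1 window bases without a RefSeq gene. The HOXB-AS3 and HOXB-AS2 windows, with 206 and 169, were counted in bases that include parts of HOXB3. Within HOXB the DMSO densities were 13.3 for noncoding and 8.91 for coding windows. In HOXD the 1 noncoding window had 0 reads.

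**Figure D4:**
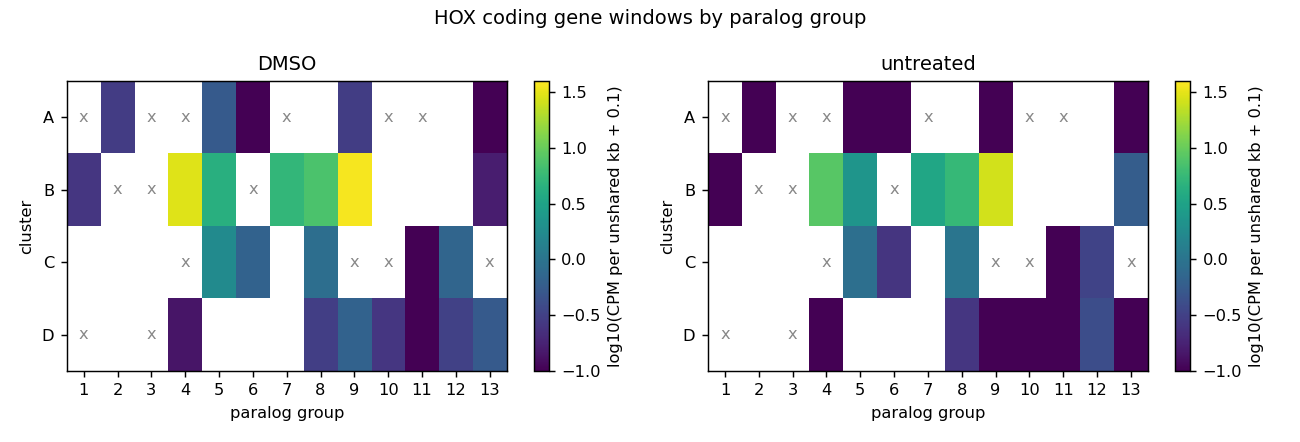
Density of the coding HOX windows by cluster and paralog group, DMSO on the left and untreated on the right, as log10 of CPM per unshared kb plus 0.1. A cross marks a window with under 1 kb of unshared bases and a blank cell has no gene in the table. The bright cells are HOXB4 and HOXB9 in both libraries, at 29.5 and 36.6 CPM per unshared kb with DMSO.

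DMSO was set against untreated cells to see whether HOX windows read alike with and without the solvent. Among the HOX windows 9 passed the floor, 8 of HOXB and HOXC-AS1. None of the 9 was at least 2-fold higher with DMSO relative to the median window, where 7.04% of all windows past the floor were. None was at least 2-fold lower, where 7.97% were. With 9 windows, counts of 0 lie close to these background shares. The 9 had a median log2 ratio of -0.45 relative to the median window, with 3 above it and 6 below it. This describes the windows that passed and not all members.

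HOXC-AS1 had the highest log2 ratio of the 9, 0.68, with an interval of -0.05 to 1.51. HOXB4 stood at 0.53 (0.17 to 0.92), and HOXB-AS1 at 0.17 (-0.22 to 0.58). HOXB8 was lowest at -0.88 (-1.29 to -0.46), followed by HOXB9 at -0.81 (-1.11 to -0.51). HOXB7 stood at -0.65 (-1.22 to -0.06), HOXB-AS3 at -0.55 (-0.96 to -0.12), HOXB-AS2 at -0.45 (-0.92 to 0.04) and HOXB5 at -0.30 (-0.92 to 0.35). The interval of HOXB4 did not overlap those of HOXB8, HOXB9, HOXB7, HOXB-AS3 and HOXB-AS2. It did overlap those of HOXC-AS1, HOXB-AS1 and HOXB5, the coding window past the floor next to it. All 9 lay inside the central 95% of windows past the floor, -1.48 to 1.41. Below the floor, HOXC8 stood at -1.54 (-2.69 to -0.40) on 19 DMSO and 12 untreated reads.

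**Figure D5:**
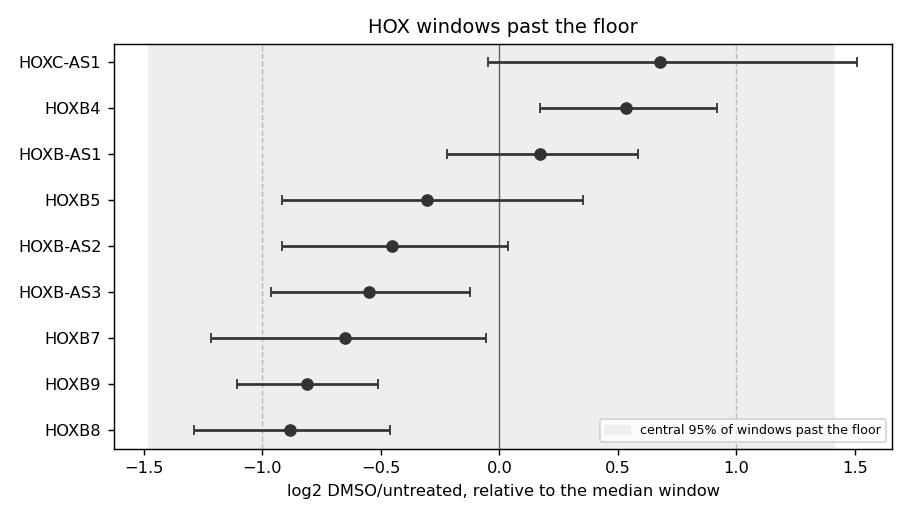
Log2 DMSO over untreated ratio of the 9 HOX windows past the floor, relative to the median window, with exact 95% Clopper-Pearson intervals as bars. Grey marks the central 95% of all windows past the floor and dashed lines mark 2-fold. Every point lies between the dashed lines, from HOXC-AS1 at 0.68 to HOXB8 at -0.88.

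Summed by cluster, the log2 ratio relative to the median window was -0.31 for HOXB (-0.45 to -0.17) and 0.00 for HOXC (-0.46 to 0.50). HOXD was at 0.66 on 38 DMSO and 5 untreated reads, with a wide interval of -0.66 to 2.39. HOXA, with 48 DMSO and 0 untreated reads, was at least 3.39-fold higher with DMSO when 3 reads stand for the 0, and the exact lower limit was 2.65-fold. No single HOXA window reached this: the same bound was 1.13-fold for HOXA-AS2 and under 1 for each other HOXA window it was computed for. Without HOXA-AS2 the bound of the cluster was 1.18 on the log2 scale. The HOXB value moved to -0.50 without HOXB4, the HOXC value to -0.65 without HOXC-AS1 and the HOXD value to 0.01 without HOXD9.

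Neural marker genes also held reads mainly in the DMSO library, and this is given beside the HOXA reads because both were near 0 in untreated cells. Of the 10 neural windows, 6 had 0 untreated reads, 1 of them also 0 DMSO reads. That count is near the share over all windows, of which 18424 of 36814 held an untreated read. Lymphoid markers also had 0 untreated reads in 6 of 10 windows. The sum of the 10 neural windows was 981 CPM with DMSO and 7.02 CPM in untreated cells. CDR1 had 2985 DMSO and 0 untreated reads, and GFAP, an astrocyte filament gene, 514 and 0. The part of such RNA in the HOXA reads was not tested.

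Genes beside the clusters were read at levels of their own. LNPK and MTX2 next to HOXD had 393 and 221 DMSO reads, against 53 and 31 untreated reads, each more than all HOXD windows together. HIBADH next to HOXA had 164 DMSO and 26 untreated reads, whereas SKAP2 on the other side had 1 and 0 over 6000 unshared bases. SMUG1, ATP5MC2 and CALCOCO1 next to HOXC had 163, 142 and 27 DMSO reads and 54, 29 and 13 untreated reads. SKAP1, next to HOXB, had 0 in both libraries over 6000 unshared bases, and TTLL6 had 2 DMSO reads and 0 untreated reads. SKAP1 and TTLL6 beside HOXB were thus near 0, whereas LNPK and MTX2 beside HOXD held many reads. EVX2, the listed window closest to HOXD, was near 0 too, with 2 DMSO reads and 1 untreated read over 6000 unshared bases. PRAC1 and PRAC2, between HOXB9 and HOXB13, had 1 DMSO read and 0 untreated reads each, and EVX1 and CBX5 had 1 and 0 unshared bases.

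Partner and regulator genes of HOX proteins were read unevenly. At 1 CPM or more with and without DMSO were 34.7% of all windows of the table, and 42.7% of those with at least 1 kb of unshared bases. Among 11 TALE cofactor windows, 5 were at this level, which is near these shares. PKNOX1 came first with 847 DMSO and 100 untreated reads, a log2 ratio of 0.84 (0.54 to 1.16). PBX4 had 57 DMSO and 10 untreated reads and PBX2 60 and 8. MEIS1, the leukaemia partner of HOXA9, had 19 unshared bases and 0 reads. Among 29 Polycomb windows, 24 were at 1 CPM or more with and without DMSO, well above these shares. EZH2, the methyltransferase of the complex, came first with 1351 DMSO and 150 untreated reads. BMI1, a subunit of the other main Polycomb complex, had 753 DMSO and 92 untreated reads. Of the 19 Polycomb windows past the floor, 13 lay above the median window, and the median log2 ratio was 0.30. Of these 19, 2 were at least 2-fold higher, where 7.04% of all windows past the floor were. RNF2, a ubiquitin ligase gene of the list, was highest at 1.33 (0.56 to 2.25).

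Of 20 windows of Trithorax, MLL complex and CDX genes, 12 reached 1 CPM in both libraries, against 34.7% of all windows of the table. ASH2L, a core MLL complex subunit, had 755 DMSO and 150 untreated reads, KMT2B 630 and 77, and the H3K27 demethylase gene KDM6B 169 and 117. Of the 9 past the floor, PSIP1, which encodes a chromatin tether of MLL, was highest at 1.06 (0.37 to 1.86) and KDM6B lowest at -1.70 (-2.06 to -1.35). Their median was 0.09. CDX1 had 4 DMSO reads and 0 untreated reads, CDX2 had 1 and 0 and CDX4 had 0 and 1. These CDX windows were near 0 although fully unshared. Any link between their level and that of the HOX clusters was not tested.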

How the data were processed

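PRO-seq reads of K562 cells, 1 library with DMSO and 1 untreated, were used as deposited. The authors aligned reads to hg38 with Bowtie2 2.3.5 and used featureCounts 2.0.1 for the counting, as the submitters' processing notes say. The deposited values are read counts in 36814 windows of 6000 bases around gene starts, plus TPM. The authors' TPM values matched CPM everywhere (tolerance 1e-06), as windows are equally long, and were set aside. Totals were 4154920 reads with DMSO and 2136291 untreated, so 1 read is 0.241 CPM with DMSO and 0.468 CPM untreated.

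The unshared bases of each window were computed from the window coordinates. Counts were scaled by TMM in edgeR 4.0.16 (R 4.3.3), 3.81 DMSO reads per untreated read at equal level, with a prior count of 0.5. With 1 library per treatment no test was run. The ratio procedure was tested on simulated data. Alternatives were library totals, DESeq2 1.42.0 size factors, other priors, floors, fold and level thresholds, thinning of the DMSO library, CPM outside ribosomal RNA and mitochondrial windows, and leaving out noncoding or top members. Named windows were members with at least 20 reads, the 4 of highest density per cluster with at least 200 unshared bases, every noncoding member with a read, every member with at least 10 reads in 1 library alone, and members at 0 with their unshared bases. Further members are named where they complete a cluster. From the other lists the 3 of highest mean CPM and the highest and lowest ratio were named, and CDX, MEIS1, CDR1 and GFAP were chosen after their values were seen. Some windows that this rule selects are not reported here. The members and lists were chosen with earlier results of these data known. All 55 member symbols matched RefSeq of GRCh38.p14, and start regions were found for 29 of them.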

Additional observations from a re-analysis of the deposited data

How the results depend on the processing

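No paired analysis was possible because there was 1 library with DMSO and 1 without. The count of HOX windows at 1 CPM in both libraries ran from 9 at 5 CPM to 17 with CPM outside ribosomal RNA and mitochondrial windows, against 13. The shares of 34.7% and 42.7% over all windows hold for the main setting only. Shares at the other settings are not given here, so these counts cannot be read as high or low. The order of the clusters by density, HOXB then HOXC then HOXA and HOXD, was the same without the noncoding members, where the DMSO shares were 1.53% for A, 89.7% for B, 6.05% for C and 2.77% for D and the DMSO densities 0.238 for A, 8.91 for B and 0.816 CPM per unshared kb for C. HOXA (0.238) then lay below HOXD. Without the top member of each cluster the shares were 91.4% for B and 5.16% for C with DMSO, and 5.82% for C untreated, and the densities 8.40 for B and 0.745 for C with DMSO, and 0.483 for C untreated. As medians over members the densities were 0 for A, 6.78 for B, 0.541 for C and 0.0990 for D with DMSO, and 3.82 for B, 0.0767 for C and 0 for D untreated. With CPM outside ribosomal RNA and mitochondrial windows they were 0.625, 18.8, 3.12 and 0.452 for A to D with DMSO, and 21.2, 2.82 and 0.255 for B to D untreated, so HOXB then stood lower with DMSO than untreated. Without the top member, the log2 ratio bound of A was 1.18, and the ratio was -0.50 for B and -0.65 for C, and for D it was 0.01, against 0.66, on few reads. On the TMM scale itself, with no median subtracted, B was at -0.0030. At 1.5-fold, 1 window was higher (HOXC-AS1) and 3 were lower (HOXB8, HOXB9 and HOXB7), against 18.6% and 19.6% of all windows past the floor. At a floor of 1 CPM and 20 reads, 1 of 12 was 2-fold lower (HOXC8), against 12.2% of all. The remaining alternatives moved counts by no more than 1.5 times and kept ratios, densities and shares within their counting intervals. Depth limits HOXA and HOXD, since 3 untreated reads make 1.40 CPM and no HOXA or HOXD window passed the floor.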

Other observations

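Windows inside the clusters whose names are not HOX names were also read. AC103702.1, at chromosome 17, 48579260 to 48585259, had 132 DMSO and 42 untreated reads over 3909 unshared bases, 8.13 and 5.03 CPM per unshared kb. RefSeq places MIR10A and HOXBLINC, a noncoding RNA of the HOXB cluster, wholly inside this window, and its log2 ratio relative to the median window was -0.58 (-1.10 to -0.05). In the HOXC cluster AC012531.1 had 15 DMSO reads and 1 untreated read over 2800 unshared bases. In the HOXD cluster HAGLROS had 6 DMSO reads and 1 untreated read over 6000 unshared bases, and HAGLR had 291 unshared bases and 0 reads in both libraries.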
